A study of Mus musculus with 24 samples.

Results

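The cytochrome P450 family was represented on the arrays by 70 genes of the 18194 that could be named, all those whose symbol is Cyp followed by a family number, a subfamily letter and a gene number. They were covered by 93 probe sets, and 18 genes had more than 1. Each gene was read from its brightest probe set, by the mean over all 24 arrays. The arrays measured RNA of tubules dissected from collagenase-treated left kidneys. The mice were male C57BL/6J, untreated and without an altered gene, on standard chow and a cycle of 12 h light and 12 h dark. The 12 groups were formed by 2 tubule segments, the distal convoluted with the connecting tubules (written DCT/CNT) and the collecting ducts of the cortex (CCD), at 6 zeitgeber times counted in hours from lights on (ZT 0, 4, 8, 12, 16 and 20). Each group held 2 arrays, each with a pool of RNA from mice killed at that time, with 5 animals per time. Ages were not given, and the labels do not say whether the pools of a time shared animals.

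Cytochrome P450 enzymes are haem proteins that use molecular oxygen and electrons from NADPH to oxidise small lipophilic molecules. Members of a first kind make or break down hormones and sterols, among them the enzymes that activate and inactivate vitamin D, build steroid hormones, remove retinoic acid and convert oxysterols to bile acids. Members of families 1 to 3 mostly oxidise drugs and other foreign compounds, and members of the Cyp2c and Cyp2j subfamilies also turn arachidonic acid into epoxides. Family 4 hydroxylates the far end of fatty acids and of eicosanoids. In the kidney much of the P450 protein lies in the proximal tubule, while the products of arachidonic acid and vitamin D metabolism act along the distal nephron.

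The values are log2 intensities, so a difference of 1 is a doubling. They were not compared between genes, since probe sets differ in their response. Most members were dim: 48 of 70 had a mean below 5.82, the median of all probe sets' means, and 28 fell in the dimmest of 10 equal bins of all genes. The array medians lay between 5.80 and 5.89, but the interquartile range was 3.32 to 3.65 on DCT/CNT arrays and 4.08 to 4.28 on CCD arrays. With this difference in spread, genes of bin 2 from the dim end read 0.41 higher in DCT/CNT at the median, and genes of bin 9 read 0.48 lower. The median gene differed by -0.13 between DCT/CNT and CCD as deposited, and by 0.08, 0.01 and 8e-04 after equalising the array medians, after quantile and after cyclic loess normalisation. A member's difference relative to the median gene is therefore its printed difference plus 0.13. Where a member is named in the comparison of the segments, the text gives whether its call held in all 3 of these rescalings.

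The labels were checked against defining markers. All 10 measured markers of the DCT and CNT were higher in DCT/CNT, with Slc12a3, the thiazide-sensitive sodium chloride cotransporter, at 8.48 to 12.09 against 4.48 to 6.01 in CCD. All 10 principal cell markers were lower there, with Aqp2, the vasopressin-regulated water channel, at 7.76 to 8.23 against 9.91 to 10.59. Of 10 intercalated cell markers 8 were lower and 1 higher. None of these markers was dim, and of all genes that were not dim 12.4% read higher in DCT/CNT and 68.5% lower. The median difference was 1.81 for the DCT and CNT markers. For the principal cell markers it was -0.44, near the -0.48 of all genes of bin 9. Both segments also carried proximal tubule markers: the mean of the 27 measured markers ranged from 6.87 to 8.22 over DCT/CNT pools and from 6.87 to 8.18 over CCD pools. Medians of other marker means over DCT/CNT and CCD pools were 7.74 and 7.12 for thick ascending limb and 6.87 and 6.32 for smooth muscle and fibroblasts. They were 6.72 and 6.52 for leukocytes, 6.30 and 6.11 for podocytes, and 8.04 and 8.05 for endothelium. Whether such cells had a part in the segment differences was not tested. In such RNA, fewer cells of a type and less RNA per cell cannot be told apart.

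Comparison of the segments asked which P450 genes distinguish the distal tubule from the collecting duct. In limma's moderated test, called at an adjusted p under 0.05, 53 of 70 members (77.4% of all genes) differed between the segments. Of these 36 of 70 members were higher in DCT/CNT against 30.4% of all genes and 17 were lower against 47%. The other 17 members did not pass. The median difference was 0.29 for the members and -0.13 for all genes. Of the 48 dim members 30 were higher and 6 lower, where all dim genes gave 59.2% and 12.4%, and of the 22 brighter members 6 were higher and 11 lower, where all brighter genes gave 12.4% and 68.5%. The shares of dim members thus lay near those of all dim genes. In 20 members the 12 DCT/CNT arrays did not overlap the 12 CCD arrays (27.8% of all genes), with DCT/CNT above in 15 and below in 5. A call in the same direction as deposited and in all 3 rescalings was found for 26 higher members (18.9% of all genes) and 8 lower members (22.2%). These shares cover genes of all levels and were not computed for dim genes, to which 48 of the 70 members belonged. A difference of at least 1 log2 unit separated 7 higher members (2.86% of all genes) and 4 lower members (4.62%).

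**Figure D1:**
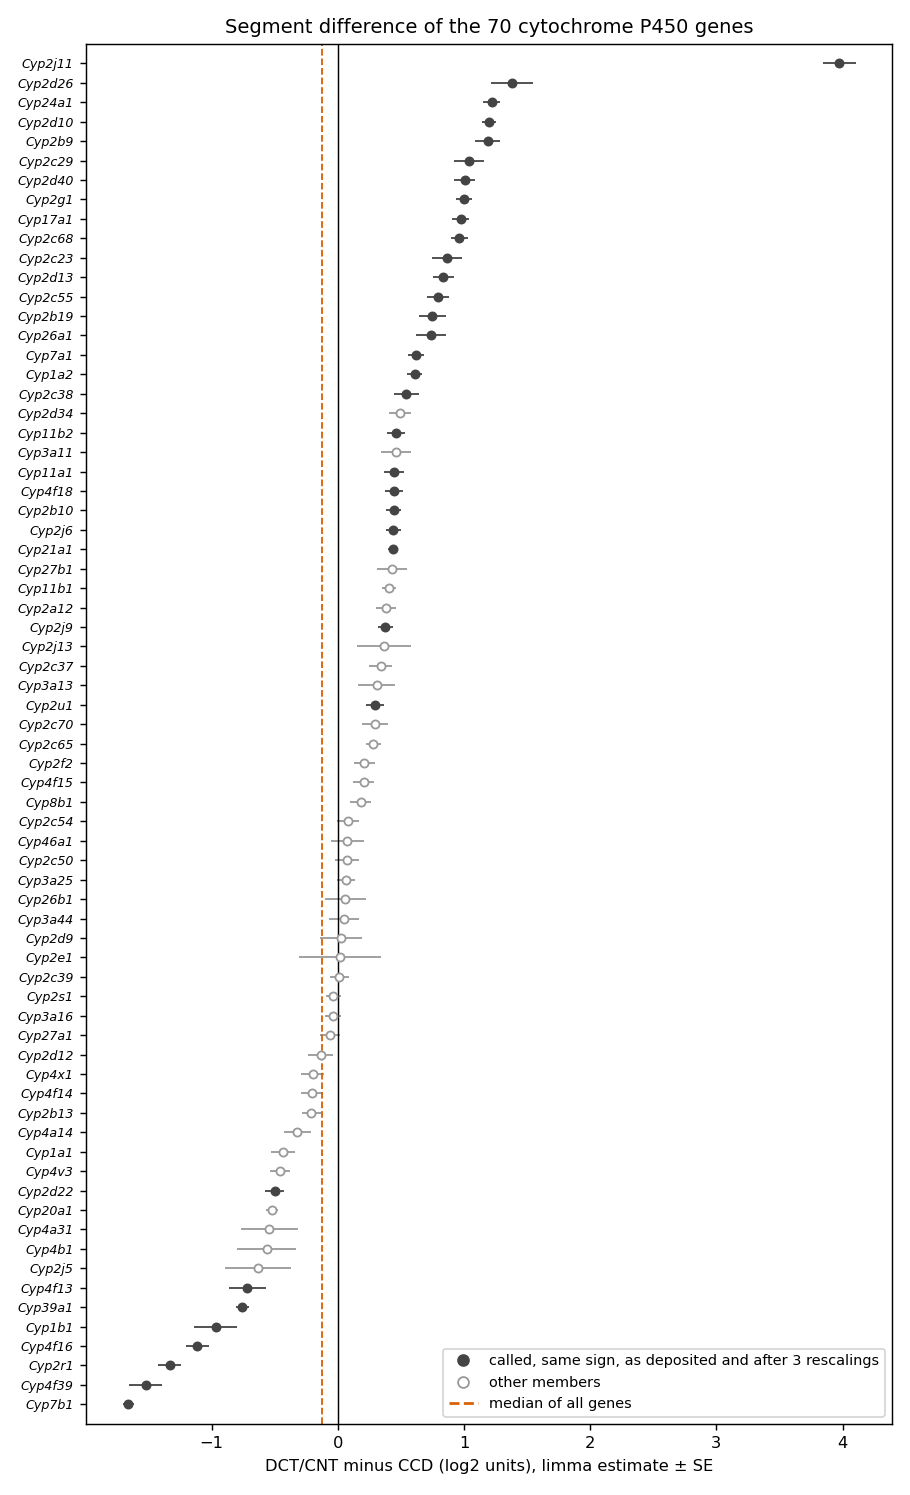
Difference between DCT/CNT and CCD (log2 units, limma estimate with its standard error, 12 arrays per segment) for each of the 70 P450 genes, sorted. Filled points were called with the same sign as deposited and in all 3 rescalings, and the dashed line is the median of all genes at -0.13. Cyp2j11 stands alone at 3.97, and Cyp7b1 is lowest at -1.66.

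**Figure D2:**
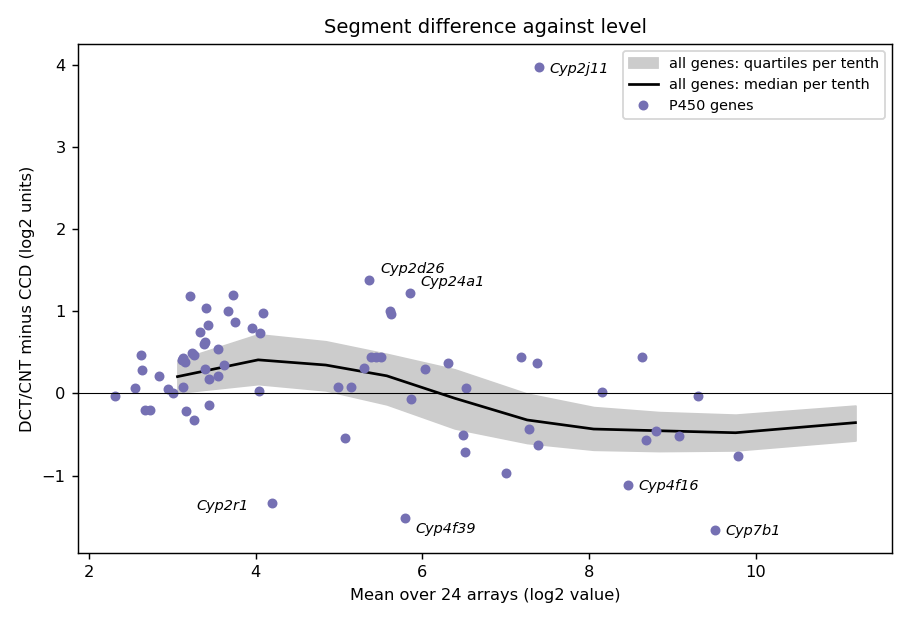
Segment difference (log2 units) against the mean over 24 arrays (log2 value) for the 70 P450 genes, with the median and quartiles of all genes in 10 bins of level. Many dim members lie above 0 with the band of all genes, while Cyp2j11, Cyp7b1, Cyp4f39 and Cyp2r1 lie far outside it.

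Of the 4 enzymes of vitamin D metabolism, the inactivating hydroxylase was higher in DCT/CNT and a hydroxylase of the first activating step was higher in CCD. Cyp24a1, which inactivates both circulating and active vitamin D, had a lowest, median and highest value of 6.20, 6.48 and 6.94 in DCT/CNT and 4.96, 5.24 and 5.48 in CCD. Every DCT/CNT array lay above every CCD array, and the difference was 1.22 (SE 0.07, 2.33-fold, adjusted p = 2.56e-10, limma). A second, dimmer Cyp24a1 probe set differed by 0.24. Cyp2r1, the microsomal enzyme that makes the circulating form, went the other way, at 3.21, 3.54 and 3.86 in DCT/CNT and 4.44, 4.88 and 5.17 in CCD. Its difference was -1.33 (SE 0.09, 2.52-fold, adjusted p = 2.26e-09), again without overlap, and it was a dim gene that read lower in DCT/CNT where most dim genes read higher. Both calls held in all 3 rescalings, with Cyp24a1 between 1.09 and 1.43 and Cyp2r1 between -1.12 and -1.63.

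The activating enzyme Cyp27b1, which makes the active hormone and is known from the proximal tubule, was dim, at 3.0 to 3.65 in DCT/CNT and 2.65 to 3.90 in CCD. Its difference of 0.43 (SE 0.12, adjusted p = 0.00363) was not past the threshold after quantile (0.18, adjusted p = 0.157) or cyclic loess normalisation (0.13, adjusted p = 0.329). Cyp27a1, a mitochondrial sterol hydroxylase that can also act on vitamin D, differed by -0.06 (SE 0.08, adjusted p = 0.489) with overlapping arrays. It gave 0.15 after equal medians and passed the threshold after cyclic loess normalisation (-0.19, adjusted p = 0.0460). The receptor of the active hormone, Vdr, was higher in DCT/CNT, at 10.82 to 11.68 against 9.15 to 9.81, a difference of 1.85 (SE 0.05, adjusted p = 4.26e-13). Cyp24a1 is a known target of that receptor.

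All 5 measured enzymes of steroid hormone synthesis read higher in DCT/CNT (30.4% of all genes, 59.2% of dim genes). The calls of 4 held in all 3 rescalings (18.9% of all genes, not computed for dim genes). Of the 5 enzymes 4 were dim, Cyp17a1 among them. Cyp17a1, the hydroxylase and lyase on the way to sex steroids, had the largest difference of the group, at 4.20, 4.55 and 4.90 against 3.26, 3.59 and 3.79 (difference 0.97, SE 0.07, adjusted p = 2.61e-09). Cyp21a1, which serves both glucocorticoid and mineralocorticoid synthesis, was the only member of the group above the median level, at 7.30, 7.36 and 7.54 in DCT/CNT and 6.80, 6.96 and 7.12 in CCD. Its arrays did not overlap, and its difference of 0.44 (SE 0.04, adjusted p = 7.29e-08) grew to 0.72 after quantile normalisation. Cyp11a1, which cleaves the cholesterol side chain, differed by 0.45, Cyp11b2, the aldosterone synthase, by 0.46, and Cyp11b1, which completes corticosterone, by 0.41. The other Cyp11a1 probe sets gave 0.52 and 0.01. The Cyp11b1 call was lost after cyclic loess normalisation (0.11, adjusted p = 0.119). These 3 genes had arrays that overlapped between segments, and their values of 2.60 to 6.01 lay in the range where all genes tended to read higher in DCT/CNT (59.2% of all dim genes).

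Of the 2 measured retinoic acid hydroxylases 1 was called (77.4% of all genes). Cyp26a1 read 4.00, 4.46 and 4.92 in DCT/CNT against 3.14, 3.66 and 4.24 in CCD, a difference of 0.74 (SE 0.12, adjusted p = 3.8e-05) that held in all 3 rescalings. Cyp26b1 differed by 0.06 (SE 0.16, adjusted p = 0.744), with values from 5.63 to 7.66 over both segments, and did not pass in any rescaling. The difference between these 2 differences was not tested.

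Among 5 enzymes of sterol and bile acid metabolism, the oxysterol hydroxylases Cyp7b1 and Cyp39a1 were the ones higher in CCD. Cyp7b1, which hydroxylates oxysterols in the alternative route to bile acids and also acts on neurosteroids, read 8.49, 8.67 and 9.0 in DCT/CNT and 10.09, 10.31 and 10.58 in CCD. Its difference of -1.66 (SE 0.04, 3.16-fold, adjusted p = 2.42e-13) was the lowest of the family, and all 12 CCD arrays exceeded all 12 DCT/CNT arrays. Its other probe sets differed by -1.83 and -0.67, and the rescaled differences ran from -1.45 to -1.18. Cyp39a1, whose preferred substrate is an oxysterol made in the brain by Cyp46a1, read 9.11, 9.43 and 9.66 against 9.78, 10.15 and 10.38, a difference of -0.76 (SE 0.05, adjusted p = 1.93e-09) without overlap. This difference was -0.29 after either quantile or cyclic loess normalisation and stayed past the threshold.

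The classical bile acid route gave other values. Cyp7a1, the rate-limiting enzyme of bile acid synthesis in liver, was dim in both segments and higher in DCT/CNT, at 3.40 to 3.96 against 2.84 to 3.30 (difference 0.62, SE 0.07, adjusted p = 3.87e-07), in all 3 rescalings too. Cyp8b1, which decides the ratio of bile acids, differed by 0.18 (SE 0.08, adjusted p = 0.0618). It passed after equal medians (0.39) and changed sign without passing after quantile (-0.14) and cyclic loess normalisation (-0.12). Cyp46a1, the brain cholesterol hydroxylase, differed by 0.07 (SE 0.13, adjusted p = 0.615), did not pass in any rescaling and changed sign in the same 2 (-0.16 and -0.19).

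The 3 family 1 genes, targets of the aryl hydrocarbon receptor that oxidise polycyclic hydrocarbons and oestrogens, did not move together. Cyp1b1 read 5.42, 6.55 and 7.0 in DCT/CNT and 6.90, 7.52 and 8.03 in CCD, so the highest DCT/CNT array only just reached the CCD range. Its difference was -0.97 (SE 0.17, adjusted p = 8.69e-05) and held in all 3 rescalings, but its probe sets did not read alike: the others gave -0.62 and 0.82. Cyp1a1 differed by -0.43 (SE 0.09, adjusted p = 0.000661), which was not past the threshold after quantile (-0.13) or cyclic loess normalisation (-0.16). Cyp1a2 was dim and higher in DCT/CNT, at 3.45 to 3.93 against 2.93 to 3.38 (difference 0.61, SE 0.06, adjusted p = 1.27e-07), in all 3 rescalings too. Of their transcription partners, Arnt was lower in DCT/CNT, with a difference of -0.51 (SE 0.05), and Ahr gave -0.38 (SE 0.18, adjusted p = 0.0658).

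Family 2 held 34 members outside the vitamin D group, of which 23 were higher in DCT/CNT (30.4% of all genes, 59.2% of dim genes), 3 lower (47%, 12.4% of dim genes) and 8 not past the threshold. Since 25 of the 34 were dim, the share of higher members lay near that of dim genes. The count of higher members that held in all 3 rescalings was 17 (18.9% of all genes, not computed for dim genes). Cyp2j11 stood apart from every other member. It belongs to the arachidonic acid epoxygenase subfamily, and it read 8.78, 9.34 and 9.86 in DCT/CNT and 4.76, 5.28 and 6.43 in CCD. Its difference of 3.97 (SE 0.13, 15.7-fold, adjusted p = 1.46e-12) was 4.10 relative to the median gene and ran from 4.12 to 4.28 in the rescalings. With any single array left out it stayed between 3.88 and 4.07. The lowest DCT/CNT array exceeded the highest CCD array by far more than the SD between arrays, with SDs of 0.34 (DCT/CNT) and 0.46 (CCD).

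The other Cyp2j genes lie beside Cyp2j11 in 1 cluster, in the order Cyp2j13, Cyp2j12, Cyp2j11, Cyp2j8, Cyp2j6, Cyp2j9 and Cyp2j5 with no other gene between them in the reference table. Cyp2j12 and Cyp2j8 were not analysed here. Cyp2j6 read 8.64, 8.87 and 9.02 in DCT/CNT against 7.99, 8.47 and 8.61 in CCD, and its difference of 0.44 (SE 0.06, adjusted p = 6.04e-06) held in all 3 rescalings. Cyp2j9, at 7.17 to 7.96 against 6.85 to 7.51, differed by 0.38 (SE 0.06) and held likewise. Cyp2j13 differed by 0.37 (SE 0.21, adjusted p = 0.127) and passed after equal medians alone (0.58, adjusted p = 0.0200). Cyp2j5, an epoxygenase known from the proximal tubule, gave -0.63 (SE 0.26, adjusted p = 0.0384) and was not past the threshold in any rescaling. The measured neighbours thus lay between -0.63 and 0.44, against 3.97 for Cyp2j11. The 250 bases before the start of Cyp2j11 (RefSeq, GRCm38.p6, chr4:96348681-96348930, minus strand) are shown as the promoter of the member with the largest segment difference. None of the motifs searched, given with the promoters of the rhythmic members further on, was in this window.
Cyp2j11: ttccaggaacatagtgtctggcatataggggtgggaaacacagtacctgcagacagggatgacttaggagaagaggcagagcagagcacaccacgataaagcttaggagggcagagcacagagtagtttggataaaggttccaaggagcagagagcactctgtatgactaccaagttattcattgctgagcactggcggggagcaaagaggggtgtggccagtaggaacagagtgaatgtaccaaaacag

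In the Cyp2d subfamily 7 of 8 members were dim, and 5 of 8 were higher in DCT/CNT, near the 59.2% of all dim genes, and 1 was lower. These genes oxidise many drugs, and their mouse copies are alike in sequence, so signal from related transcripts cannot be told apart within a probe set. Cyp2d10 read 4.09, 4.26 and 4.74 against 2.84, 3.17 and 3.25, a difference of 1.20 (SE 0.06, adjusted p = 5.53e-11) without overlap. Cyp2d40, at 5.95, 6.07 and 6.43 against 4.67, 5.07 and 5.59, differed by 1.01 (SE 0.08), and Cyp2d13 by 0.84 (SE 0.08), both without overlap, although a second Cyp2d13 probe set gave 0.14. The calls of these 3 genes held in all 3 rescalings. Cyp2d26 had a large but scattered difference of 1.38 (SE 0.16), which held likewise: its DCT/CNT pools at ZT 12 read 7.57 and 7.77 while the other 10 lay between 5.26 and 6.83. Cyp2d22 was the 1 member called lower, at 5.54, 6.24 and 6.68 in DCT/CNT and 6.26, 6.72 and 7.13 in CCD. Its difference of -0.50 (SE 0.07) held in all 3 rescalings. It was not dim, and of all brighter genes 68.5% read lower.

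All 11 Cyp2c members were dim, and 8 of them were higher in DCT/CNT, where 59.2% of all dim genes were. The calls of 5 held in all 3 rescalings (18.9% of all genes, not computed for dim genes). Cyp2c29 read 3.37, 3.87 and 4.77 against 2.39, 2.88 and 3.32 (difference 1.04, SE 0.12, adjusted p = 7.44e-07). Cyp2c68, which is less dim, read 5.69, 6.11 and 6.58 against 4.87, 5.13 and 5.31 (difference 0.96, SE 0.07, adjusted p = 3.74e-09). Neither gene had overlapping arrays, and both calls held in all 3 rescalings. The remaining members of the subfamily ranged from 0.01 for Cyp2c39 to 0.86 for Cyp2c23, an epoxygenase of the kidney. The Cyp2c23 call held likewise, while Cyp2c39 passed in opposite directions after equal medians (0.22) and after quantile (-0.22) or cyclic loess normalisation (-0.29).

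All 4 Cyp2b genes, which respond to phenobarbital-like compounds through the receptor CAR, were dim. In all 3 rescalings 3 of them were higher in DCT/CNT (18.9% of all genes, not computed for dim genes). The remaining one, Cyp2b13, was lower (-0.21, adjusted p = 0.0230), also after quantile (-0.48) and cyclic loess normalisation (-0.51), but not after equal medians (2e-04, adjusted p = 0.998). Cyp2b9 read 3.48, 3.73 and 4.63 against 2.31, 2.64 and 2.94 (difference 1.19, SE 0.10, adjusted p = 2.87e-08). Cyp2b10 read 5.20, 5.60 and 6.00 against 4.83, 5.19 and 5.51, a smaller difference of 0.44 (SE 0.06, adjusted p = 4.71e-06) with overlapping arrays. Its other probe sets gave 0.10 and -0.18. Cyp2g1, known from the olfactory mucosa, read 3.78, 4.20 and 4.39 against 2.83, 3.19 and 3.42 (difference 1.0, SE 0.06, adjusted p = 1.29e-09), in all 3 rescalings too. Cyp2s1, an epithelial P450, read 9.07 to 9.54 in DCT/CNT and 9.13 to 9.54 in CCD. Its difference of -0.03 (SE 0.06) did not pass as deposited but was 0.17 after equal medians, 0.43 after quantile and 0.45 after cyclic loess normalisation, past the threshold each time.

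Family 3, whose members carry much of hepatic drug oxidation, gave 1 call among 5 members, all dim. Of all genes 77.4% differed either way, and 59.2% of dim genes were higher in DCT/CNT. Cyp3a11 was very dim (1.87 to 3.39) and differed by 0.46 (SE 0.12, adjusted p = 0.0022), which was lost after cyclic loess normalisation (0.17, adjusted p = 0.192). Cyp3a13 differed by 0.31 (SE 0.15, adjusted p = 0.0702), but passed after equal medians (0.52, adjusted p = 0.00337), with the proximal tubule mean as covariate (adjusted p = 0.0348) and with the pools of a time as a replicate block (adjusted p = 0.0217). Cyp3a16 (-0.04, SE 0.06) and Cyp3a25 (0.06, SE 0.07) did not pass as deposited and passed in opposite directions after rescaling. Cyp3a16 was 0.17 after equal medians (adjusted p = 0.0215) and -0.31 after cyclic loess normalisation (adjusted p = 0.000311). Cyp3a25 was 0.27 (adjusted p = 0.00233) and -0.22 (adjusted p = 0.0216).

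In family 4, of which 7 of 11 members were dim, 8 read lower in DCT/CNT, 2 higher and 1 did not pass the threshold. Of all genes 47% read lower, with 12.4% of dim genes and 68.5% of brighter genes. The calls of 3 of the lower members held in all 3 rescalings (22.2% of all genes), and those 3 were Cyp4f genes, relatives of the enzymes that inactivate leukotriene B4 and hydroxylate very long fatty acids. Cyp4f39, the counterpart of a human skin barrier enzyme, read 4.75, 5.04 and 5.23 in DCT/CNT and 5.78, 6.48 and 6.99 in CCD. Its difference was -1.52 (SE 0.13, 2.87-fold, adjusted p = 2.52e-08), without overlap. Cyp4f16 read 7.32, 7.97 and 8.14 against 8.67, 9.02 and 9.41 (difference -1.12, SE 0.09, adjusted p = 1.94e-08), also without overlap, but a second probe set gave -0.17 (SE 0.15). Cyp4f13 differed by -0.72 (SE 0.15). Cyp4f18 went the other way, at 5.40 to 5.97 against 5.08 to 5.66 (difference 0.45, SE 0.07, adjusted p = 3.94e-05), in all 3 rescalings. A second, dimmer Cyp4f18 probe set gave -0.07 (SE 0.05, adjusted p = 0.273 in limma), so the higher reading rests on 1 probe set.

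The remaining family 4 calls depended on the scaling. Cyp4v3, a fatty acid hydroxylase of endoplasmic reticulum, differed by -0.46 (SE 0.08, adjusted p = 6.03e-05) as deposited and by -0.01 and 0.02 after quantile and cyclic loess normalisation. Cyp4b1 (-0.56), Cyp4a14 (-0.32), Cyp4a31 (-0.54) and Cyp4f14 (-0.20) were not past the threshold after equal medians. Cyp20a1, an orphan enzyme with no settled substrate, is the only member of its family: it read 8.55, 8.78 and 9.11 in DCT/CNT and 9.02, 9.37 and 9.59 in CCD. Its difference of -0.52 (SE 0.05, adjusted p = 9.13e-08) was -0.06 after quantile normalisation, and its other probe sets gave -0.12 and 0.96, so no direction can be given for it.

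**Figure D3:**
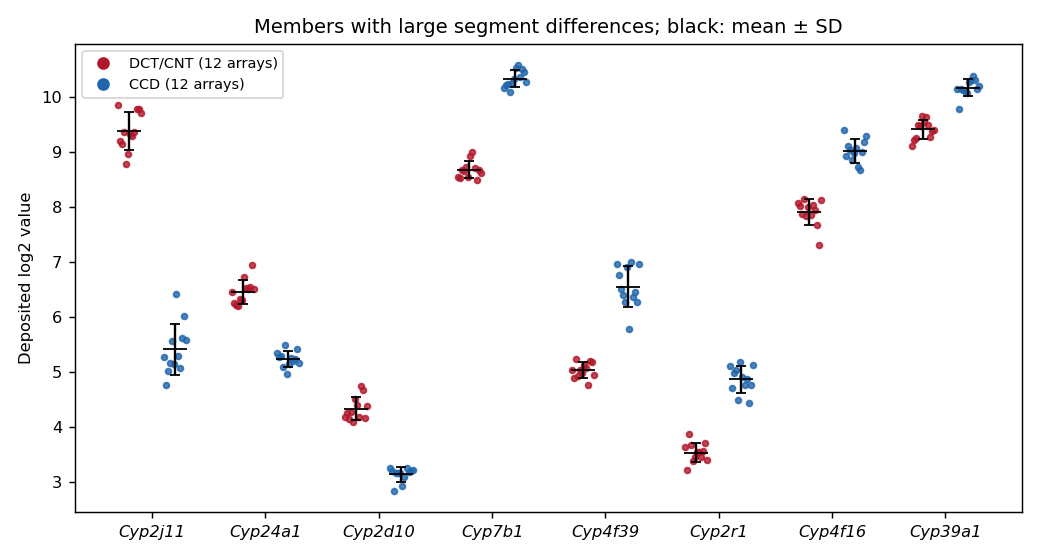
Deposited log2 values of 8 P450 genes on each of 12 DCT/CNT and 12 CCD arrays, with black marks for the mean and bars for the SD. The arrays of the segments do not overlap for any of the 8, with Cyp2j11, Cyp24a1 and Cyp2d10 above in DCT/CNT and Cyp7b1, Cyp4f39, Cyp2r1, Cyp4f16 and Cyp39a1 below.

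Comparison of the times asked which members follow the day. Few did: in the cosinor fit, a cosine of 24 h period whose amplitude is the height of the fitted peak above the mean, 1 of 70 members was called rhythmic in DCT/CNT (6.57% of all genes) and 1 in CCD (2.47%). Both called members were dim, 1 in each segment of 48 dim members. Of all 6968 dim genes 134 were called in DCT/CNT and 33 in CCD. Of the 22 brighter members 0 were called in either segment. Of all 11226 brighter genes 1061 were called in DCT/CNT and 416 in CCD. No member was called for a difference in rhythm between the segments (0.011% of all genes, limma). An unadjusted p under 0.05 for it was found for 2 members (2.86%), against 8.89% of all genes. At an unadjusted p under 0.05, 13 members (18.6%) passed in DCT/CNT and 7 (10%) in CCD, against 24.5% and 14.2% of all genes.

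Cyp2b10, whose product oxidises drugs and is a standard readout of CAR activity, was the member called in DCT/CNT. Its 2 pools there read 5.48 and 5.20 at ZT 0, 5.45 and 5.25 at ZT 4, 5.54 and 5.44 at ZT 8, 5.82 and 5.96 at ZT 12, 5.67 and 5.74 at ZT 16, and 6.00 and 5.74 at ZT 20. Every pool from ZT 12 to 20 lay above every pool from ZT 0 to 8. The mean of the 27 proximal tubule markers moved in the same direction in DCT/CNT, at 6.87 to 7.60 over the pools of ZT 0 to 8 and 7.27 to 8.22 over those of ZT 12 to 20. In the rhythm test 13 of these 27 markers had an unadjusted p under 0.05 in DCT/CNT (24.5% of all genes) and 4 in CCD (14.2%), with median amplitudes of 0.53 and 0.24, and 2 and 0 were called. The Cyp2b10 amplitude was 0.28 (SE 0.07) with a fitted peak at ZT 15.3 and a peak to trough ratio of 1.47 (adjusted p = 0.0381, limma). In CCD the pools lay between 4.83 and 5.51 with no such separation, and the amplitude was 0.13 (SE 0.07, adjusted p = 0.63). The call in DCT/CNT was fragile: it was lost in 7 of 24 omissions of a single array, with adjusted p up to 0.100, after quantile (0.0543) and cyclic loess normalisation (0.101), and with the proximal tubule mean as a covariate (0.163). The 2 other Cyp2b10 probe sets were at 2.28 to 2.57 on average and gave amplitudes in DCT/CNT of 0.14 and 0.10. Nr1i3, the gene of CAR itself, was dim and had an amplitude of 0.15 in DCT/CNT (adjusted p = 0.512).

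Cyp3a13, a member of the drug-oxidising family 3, was called in CCD and had the largest rhythm over both segments among the called members. In CCD its pools read 4.91 and 4.16 at ZT 0, 4.40 and 4.75 at ZT 4, 4.87 and 4.95 at ZT 8, 6.02 and 6.02 at ZT 12, 5.04 and 6.11 at ZT 16, and 4.71 and 5.84 at ZT 20. The pools of the light phase lay below 5, and at ZT 16 and 20 the 2 pools of a time differed by over 1 log2 unit. The amplitude was 0.72 (SE 0.14) with a peak at ZT 14.2 and a peak to trough ratio of 2.71 (adjusted p = 0.0193). In DCT/CNT the pools rose from 4.84 and 4.91 at ZT 0 to 5.62 and 6.18 at ZT 16, with an amplitude of 0.42 (SE 0.14), a peak at ZT 13.7 and an adjusted p of 0.149. The test of the difference between the segments did not pass (adjusted p = 0.787). The CCD call held in all 3 rescalings and was lost in 5 of 24 omissions of an array, with adjusted p up to 0.0655. The proximal tubule mean in CCD ranged from 6.87 to 7.83 over the pools of ZT 0 to 8 and from 7.15 to 8.18 over those of ZT 12 to 20. With it as covariate the adjusted p was 0.0449.

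Averaging the rhythm over both segments, a test added after the values had been seen, called 6 of 70 members against 11.1% of all genes. Cyp3a13 led with an amplitude of 0.57 (SE 0.10, peak at ZT 14.0, adjusted p = 0.00243) and kept its call in all 24 omissions of an array. Cyp7b1 had a small amplitude of 0.15 (SE 0.03, peak at ZT 13.1, adjusted p = 0.0202) and also kept its call in all 24. Its highest pools in both segments were those of ZT 12, at 8.93 and 9.0 in DCT/CNT and 10.53 and 10.58 in CCD, while those of ZT 0 read 8.55, 8.53, 10.16 and 10.21. With the mean of all its probe sets its amplitude was 0.05 (adjusted p = 0.435), and its probe sets did not read alike. A second bright probe set had amplitudes of 0.12 in DCT/CNT (peak at ZT 9.2) and 0.16 in CCD (peak at ZT 14.99), close to the 0.13 and 0.19 of the one used, while a dim one had its peaks at ZT 2.2 and 22.5. Cyp39a1, the other oxysterol hydroxylase, had an amplitude of 0.15 (SE 0.04, peak at ZT 12.4, adjusted p = 0.0222), with its lowest pools at ZT 0 in DCT/CNT (9.11 and 9.22) and a lowest pool of 9.78 at ZT 0 in CCD. The Cyp39a1 call was lost in 2 of 24 omissions of an array.

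Cyp20a1 was the called member with its peak at the start of the light phase, at ZT 0.309, with an amplitude of 0.15 (SE 0.04, adjusted p = 0.0275). Its CCD pools read 9.59 and 9.53 at ZT 0 and 9.18 and 9.21 at ZT 12. The Cyp20a1 call was lost in 2 of 24 omissions of an array and in 4 of 6 omissions of a time. It was also lost with time as a factor (adjusted p = 0.0701) and with the probe set of largest SD (amplitude 0.10, adjusted p = 0.200). Cyp2b10 (0.18, adjusted p = 0.0415) and Cyp4a31, a fatty acid hydroxylase (0.54, adjusted p = 0.0472), were called too, and their calls were lost in 12 and 18 of 24 omissions. With the proximal tubule mean as covariate, the amplitude over both segments of Cyp4a31 was 0.21 (adjusted p = 0.546), and Cyp2b10 (0.15, adjusted p = 0.189), Cyp7b1 (0.12, adjusted p = 0.0941) and Cyp39a1 (0.15, adjusted p = 0.0575) were not past the threshold either. Cyp3a13 (adjusted p = 0.0334) and Cyp20a1 (adjusted p = 0.0293) kept their calls. Over the 24 omissions of an array the count of called members ran from 3 to 8. Cyp24a1 stayed short of a call, with an amplitude in DCT/CNT of 0.22 (SE 0.06, peak at ZT 16.7, adjusted p = 0.0812) and 0.05 in CCD. Cyp2j11, with the largest segment difference, had amplitudes of 0.38 and 0.32 with adjusted p of 0.156 and 0.431. Cyp7a1, whose daily rhythm in liver is well known, had amplitudes of 0.04 and 0.10 in these segments (adjusted p = 0.901 and 0.718).

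**Figure D4:**
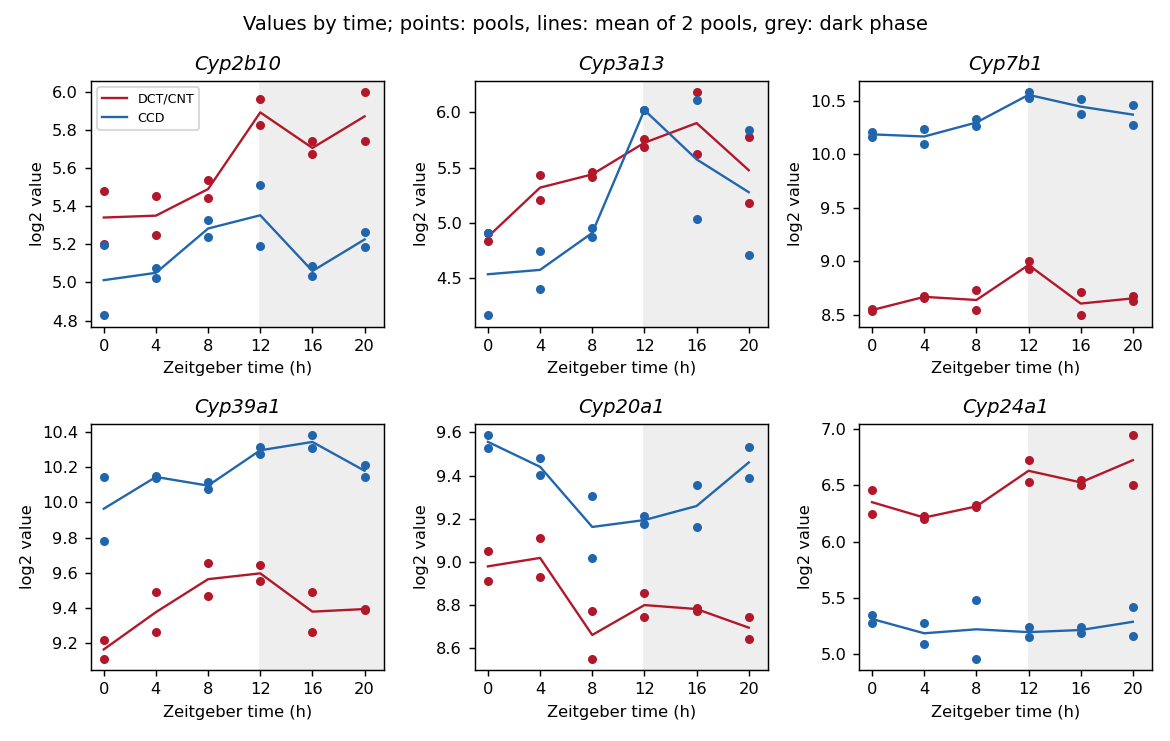
Deposited log2 values of 6 P450 genes by zeitgeber time (h from lights on), with a point for each pool and lines through the mean of the 2 pools of each segment and time. Cyp2b10 in DCT/CNT and Cyp3a13 in CCD have higher means from ZT 12 on, Cyp20a1 is highest in CCD at ZT 0, and the segments of Cyp7b1 and Cyp24a1 stay apart at every time.

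The promoters of the 2 members called rhythmic in a segment are given because clock-driven P450 genes of liver are known to be reached through DBP, TEF and HLF, which bind D-boxes, and through CLOCK and BMAL1, which bind E-boxes. Each is the 250 bases before the annotated start, from RefSeq on GRCm38.p6, for Cyp2b10 chr7:25897408-25897657 on the plus strand and for Cyp3a13 chr5:137921620-137921869 on the minus strand. Both strands were searched for 6 motifs, none of which contains another. The E-box was searched as CACGTG. The D-box was searched in a form written TTATGTAA and, separately, in a form written TTACGTAA. The element that nuclear receptors bind singly or in pairs was AGGTCA. The core bound by the aryl hydrocarbon receptor was GCGTG. The TATA box was searched as TATAAA. Capitals mark matches, here 2 copies of the GCGTG core in Cyp2b10, 1 on each strand, and none in Cyp3a13.
Cyp2b10: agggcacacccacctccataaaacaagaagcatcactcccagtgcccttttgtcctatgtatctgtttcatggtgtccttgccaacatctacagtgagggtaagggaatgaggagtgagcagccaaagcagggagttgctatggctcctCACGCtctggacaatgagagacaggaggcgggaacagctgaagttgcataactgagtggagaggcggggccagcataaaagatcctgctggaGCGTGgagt
Cyp3a13: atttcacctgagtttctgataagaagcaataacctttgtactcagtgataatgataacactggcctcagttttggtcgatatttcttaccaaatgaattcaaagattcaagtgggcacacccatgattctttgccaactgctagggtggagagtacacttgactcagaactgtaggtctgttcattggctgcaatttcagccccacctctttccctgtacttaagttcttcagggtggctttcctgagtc

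Of the 70 members 51 had a promoter entry. The E-box was in 2 of them, Cyp2j6 and Cyp4v3, or 3.92%, against 6.02% of all 32851 entries. Neither D-box form was in any member's window, where 0.819% and 0.113% of all entries held them. The TATA box was in 19 members, or 37.3%, against 12.4%, the nuclear receptor element in 12 (23.5% against 14%) and the GCGTG core in 12 (23.5% against 28.2%). A member was counted if any of its entries held the motif, while the shares of all entries were counted entry by entry, so the 2 are unlike measures. Members share ancestry, so these are not independent windows. A match is a string of letters and not a shown binding site.

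Regulators of P450 genes and partners of the enzymes were described from lists of such genes. All 4 genes of the D-box binding group (Dbp, Tef, Hlf and the repressor Nfil3) passed the rhythm test in DCT/CNT, and 3 did in CCD, with Dbp at an amplitude of 2.39 (SE 0.13, adjusted p = 7.01e-10) in DCT/CNT and 2.38 in CCD. Hlf had an amplitude of 0.76 (adjusted p = 0.00241) in DCT/CNT and 0.51 (adjusted p = 0.0663) in CCD. Of 15 measured xenobiotic and lipid receptors, 5 were higher in DCT/CNT (30.4% of all genes) and 6 lower (47%). Of the 15, 1 was called rhythmic in DCT/CNT (6.57% of all genes), Vdr (amplitude 0.32, peak at ZT 20.4, adjusted p = 0.00453).

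Genes that supply P450 enzymes with electrons and haem, which are bright genes, read mostly lower in DCT/CNT as such genes did overall. Of all brighter genes 68.5% were lower. So were 3 of 4 electron donors, Cyb5a (-0.37), Cyb5b (-0.56) and Fdx1 (-0.19), and 9 of 11 genes of haem synthesis and breakdown, among them Hmox1 (-0.89), the inducible haem oxygenase. Alas1, the first enzyme of haem synthesis, was rhythmic in DCT/CNT with an amplitude of 0.29, a peak at ZT 17.7 and an adjusted p of 0.0329. The main electron donor Por was not analysed here.

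Genes that release arachidonic acid or process its products were further apart, with a median difference of -1.10. Of the 7 measured, 4 were lower in DCT/CNT (47% of all genes, 68.5% of brighter genes). Another 2 were higher (30.4% of all genes) and 1 was not called, and the highest difference was 0.48. Ephx1 and Ephx2, the hydrolases that open epoxides made by P450 enzymes, were lower in DCT/CNT without overlap. Ephx1 read 8.27, 8.64 and 8.87 there and 9.67, 9.95 and 10.35 in CCD (difference -1.35, SE 0.05, adjusted p = 8.05e-12), and Ephx2 read 7.92, 8.24 and 8.45 against 9.11, 9.46 and 9.71 (difference -1.25, SE 0.06, adjusted p = 3.59e-11). Alox12, a lipoxygenase, differed by -1.49 and Pla2g4a, which frees arachidonic acid, by -1.10. The epoxygenase Cyp2j11 was thus higher in DCT/CNT, and both epoxide hydrolases were higher in CCD. Ephx1 was also rhythmic in both segments, with amplitudes of 0.20 and 0.26 and peaks at ZT 12.1 and 11.1 (adjusted p = 0.0474 and 0.0189).

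Several members differed strongly between the 2 pools of a group. Cyp2e1, which oxidises ethanol and other small molecules, read 9.61 and 7.52 in the DCT/CNT pools of ZT 0 and 9.66 and 7.02 in the CCD pools of ZT 8, and its segment difference was 0.02 (SE 0.33, adjusted p = 0.963), not past the threshold in any rescaling either. Cyp4b1 read 9.71 and 7.87, and 10.14 and 8.50, in the same pools. Cyp2j5 read 8.19 and 6.13, and 8.34 and 6.30. In these pools the proximal tubule mean was 7.60 and 6.87 in DCT/CNT at ZT 0, and 7.83 and 6.87 in CCD at ZT 8, so the pool high in these P450 genes was also the pool high in that mean. The pools of a group differed in the direction of the proximal tubule mean in 11 of 12 groups for Cyp4b1 (11 or more in 0.605% of all genes). For Cyp2e1, Cyp2d26, Cyp2j13 and Cyp4a31 it was 10 groups (10 or more in 2.40%). It was 9 groups for 7 members, Cyp2j5 and Cyp3a13 among them (9 or more in 7.40% of all genes). For Cyp2b10 it was 8 (8 or more in 18.5%) and for Cyp24a1 and Cyp2j11 7 (7 or more in 36.7%). For Cyp7b1 and Cyp39a1 it was 5 (5 or more in 78.35%). Whether proximal tubule RNA had a part in these values was not tested. The median of that mean was 7.42 over DCT/CNT pools and 7.44 over CCD pools.

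**Figure D5:**
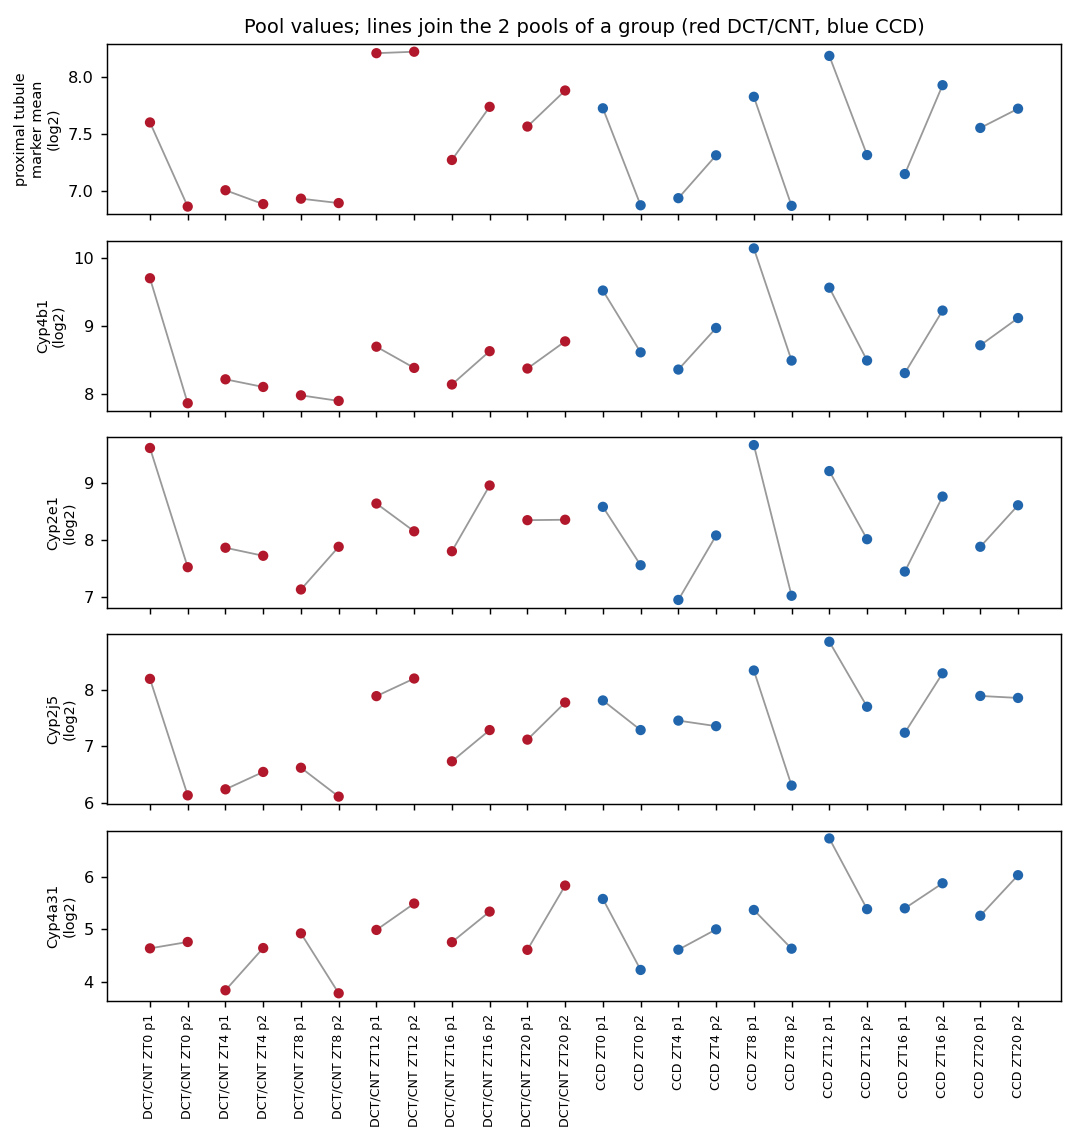
Mean of 27 proximal tubule markers and values of Cyp4b1, Cyp2e1, Cyp2j5 and Cyp4a31 (deposited log2 values) on each of the 24 arrays, labelled by segment, zeitgeber time and pool (p1, p2), with lines joining the 2 pools of a group. The marker mean has steep lines at ZT 0 in DCT/CNT and at ZT 0, 8, 12 and 16 in CCD. Those at ZT 0 in DCT/CNT and ZT 8 in CCD recur in Cyp4b1, Cyp2e1 and Cyp2j5. Cyp4a31 shows a steep line at ZT 12 in CCD.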

How the data were processed

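RNA of 24 pools (10 ng amplified and biotin labelled per array, per the labels) was measured on oligonucleotide arrays. The deposited table holds log2 values that the authors made with RMA, per the submitters' processing notes; the version, and whether both segments were normalised together, are not given in the sources used here. Of 45101 probe sets 34958 named 1 gene symbol, 932 several and 9211 none in the platform annotation, and all 70 members matched the reference table (GRCm38.p6) by gene number with the same symbol. Values were used as deposited, without a filter on dim genes. limma 3.58.1 in R 4.3.3 was fitted to all 18194 genes and all arrays: a mean, cosine and sine per segment for rhythm (moderated F test), and 12 group means for the segment difference, DCT/CNT minus CCD with each time weighted equally. Benjamini-Hochberg adjustment covered all genes. The fits were tested on simulated data. Errors are limma's standard errors (SE) or standard deviations (SD) between arrays. P-values measure the spread between pools, which may be technical. The number of arrays limits the precision.

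Members and lists were chosen with earlier results of these data known. Named members were those called for rhythm, the 10 largest segment differences each way without overlap, all hormone, sterol, retinoic acid and family 1 members, and up to 4 members per other group with the smallest adjusted p. Cyp2d26, Cyp2d22, Cyp2e1, Cyp2s1, Cyp4a14, Cyp4a31, Cyp4b1, Cyp4f13, Cyp4f14, Cyp2b13, Cyp2c23, Cyp2c39 and the other Cyp2j genes were named after their values were seen. Alternatives were rescaling, probe set choice, a filter on dim genes, array weights, the proximal tubule mean as covariate, each segment alone, time as a factor, a pool block, and leaving out each array or time. Cyp19a1 and Cyp26c1 were not analysed here.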

Additional observations from a re-analysis of the deposited data

How the results depend on the processing

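Over 37 named members and all alternatives run, 1401 of 1455 segment differences kept their direction and side of the threshold, 10 fell short of it and 22 newly passed. The sign changed in 22 others, of which 17 were past the threshold neither as deposited nor under the alternative. In the other 5 it was passed at least on 1 side: Cyp4v3 (0.019, cyclic loess), Cyp3a25 (-0.22, cyclic loess), Cyp3a16 (0.17, equal medians) and Cyp20a1 (0.11 with the mean of its probe sets, 0.96 with the probe set of largest SD). The causes were not tested. The count of higher members ran from 34 to 37 and of lower members from 12 to 17 with 1 array left out. Equal medians gave 45 higher and 11 lower, quantile normalisation 31 and 15, and cyclic loess 27 and 19. With dim genes removed before the test, 6 higher, 11 lower and 0 rhythmic in CCD remained to be called, since the tested members fell to 22.

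Rhythm calls rested on few members and moved easily. Leaving out 1 array gave 0 to 2 in DCT/CNT, 0 to 2 in CCD, 0 to 0 for the rhythm difference and 3 to 8 over both segments. In DCT/CNT there were 0 with the probe set of largest SD, with array weights, with the segment fitted alone and without ZT 4, 8 or 12, and 2 without ZT 16. In CCD there were 2 with the mean of all probe sets, 3 with array weights, and 0 with the segment alone, with time as a factor (2 over both segments) and without ZT 0, 4, 8 or 12. Over both segments 1 member was called without ZT 0, 2 without ZT 4 and 1 without ZT 12, Cyp3a13 in each. In several settings the 1 member called in DCT/CNT was another than Cyp2b10. Quantile and cyclic loess normalisation called Cyp39a1, and so did the filter on dim genes, which removed Cyp2b10. The mean of all probe sets called Cyp2u1, and time as a factor Cyp2d26. Leaving out ZT 0, or pool 2 of ZT 0 in DCT/CNT, called Cyp2a12. With the proximal tubule mean as covariate Cyp2d22 was called in DCT/CNT, and Cyp2d22 and Cyp4b1 were newly called over both segments.

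Between segments at the same time, the differences of pool 1 minus pool 2 correlated across genes with r from -0.03 to 0.09. An r over all genes includes the scatter of each array. It therefore cannot decide whether equal pool numbers marked paired samples. With the pool number as a replicate block, 36 members were higher, 17 lower, 1 rhythmic in DCT/CNT, 1 in CCD and 5 over both segments, and with the block within each time 37 were higher and 17 lower.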

Other observations

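A further 9 P450 probe sets fell outside the naming rule, because their symbol has another form or they match several genes. Cyp51, the sterol demethylase of cholesterol synthesis, had 3 probe sets with segment differences of -0.44, -0.19 and -0.05, the first with an adjusted p of 5.74e-06 in limma over all probe sets. The probe set shared by Cyp2a5 and Cyp2a4 read lower in DCT/CNT (-0.73, SE 0.17, adjusted p = 0.0015), with amplitudes of 0.77 in DCT/CNT and 0.57 in CCD that did not pass (adjusted p = 0.0668 and 0.355). The probe set shared by Cyp4a31 and Cyp4a10 gave -0.84 (SE 0.17, adjusted p = 0.000344), and the one shared by Cyp4f37 and Cyp4f16 gave -0.68 (SE 0.17, adjusted p = 0.00189). Cyp4a12a, a male kidney fatty acid hydroxylase, differed by 0.23 (SE 0.19, adjusted p = 0.277).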
